A study of Mus musculus with 12 samples.

Results

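T helper cells that carry NFATc1/ΔS, a form of the transcription factor NFATc1 that cannot be SUMOylated, were compared with wild-type (WT) cells in Th17 and in Th2 cultures, and the question was which genes answered to the genotype differently in Th17 cells and in Th2 cells. For each gene, the difference between NFATc1/ΔS and WT in Th2 was subtracted from the difference between NFATc1/ΔS and WT in Th17. This value is called the interaction here. It is positive where the genotype raised a gene more, or lowered it less, in Th17 than in Th2. It rests on the 8 Th17 and Th2 libraries of the 12 in the series, and 13086 of 41457 genes had enough reads to be tested.

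NFAT proteins are held in the cytosol until calcium and calcineurin strip their phosphates, after which they enter the nucleus and bind GGAAA motifs, often beside AP-1 factors. Attachment of the small protein SUMO to a lysine of a transcription factor can change its partners, and for NFATc1 it is known to favour contact with histone deacetylases and repression of the interleukin-2 gene. Th17 cells are known for interleukin-17 and Th2 cells for interleukins 4, 5 and 13. Granzymes and perforin, the cytotoxic effectors of CD8 T cells and NK cells, are also made at lower levels by activated CD4 T cells.

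The groups were NFATc1/ΔS Th17, WT Th17, NFATc1/ΔS Th2 and WT Th2 cells, all from mice labelled C57BL/6, with 1 library at day 2.5 and 1 at day 3.5 in each group. CD4+ T cells of lymph node and spleen were stimulated through CD3 and CD28, with TGFβ plus IL-6 and antibodies to IFN-γ and IL-4 for Th17, or with IL-4 and an antibody to IFN-γ for Th2. Th17 cultures used IMDM medium and less anti-CD3, and Th2 cultures used RPMI, so that the cell type and these culture differences cannot be told apart. In each cell type, NFATc1/ΔS and WT of 1 day form a pair, which leaves 2 pairs per cell type as the only replicates. Neither animal numbers nor ages are labelled, and nothing says that separate mice or cultures were used, so a p-value here speaks of the spread among these 8 libraries, which may be technical.

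Depth ran from 13417121 to 17774400 gene reads a library, with 78.9 to 81.0% of them unique and 2.28 to 4.16% in introns. Levels are given as CPM, the reads of a gene scaled to a common library size. The size of a library is its total of reads in tested genes multiplied by its TMM normalisation factor. These factors ran from 0.894 for WT Th2 day 2.5 to 1.11 for NFATc1/ΔS Th17 day 3.5, so CPM are not plain shares of the gene reads. The labels of the cultures were met by their markers. Gata3, the Th2 master factor, stood at 598, 727, 550 and 705 CPM in the Th2 libraries and at no more than 75.7 CPM in the Th17 libraries, whereas Il17f ranged from 7.98 to 58.9 CPM in Th17 and was at most 1.12 CPM in Th2. Nfatc1 reads do not show whether its SUMO sites are intact. Nfatc1 had 167 and 249 CPM in NFATc1/ΔS Th17 cells against 147 and 225 CPM in WT Th17 cells, and 149 and 173 CPM in NFATc1/ΔS Th2 cells against 126 and 157 CPM in WT Th2 cells, with an interaction of -0.03 ± 0.11 (log2, SE).

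Perforin, granzymes B and C and the granule gene Nkg7 fell in NFATc1/ΔS Th2 cells and did not pass the test in Th17 cells, and for all 4 the difference between the cell types itself passed. The protease gene Capn11 rose in NFATc1/ΔS Th17 cells, and Batf3, a BATF family transcription factor, fell there, with no change that passed in Th2. In all, 39 of the 13086 genes passed in the interaction (0.298%; edgeR, adjusted p under 0.05), 28 with a higher response in Th17 than in Th2 (0.214%) and 11 with a lower one (0.0841%). For comparison, 225 genes (1.72%) passed between NFATc1/ΔS and WT within Th17 by the same fit, 92 up (0.703%) and 133 down (1.02%), and 122 (0.932%) within Th2, 28 up (0.214%) and 94 down (0.718%).

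Of the 39 genes, 16 also passed within Th17 alone, 16 within Th2 alone, 4 within both and 3 within neither. In 29 of them (0.222% of genes tested) both Th17 pairs lay on one side of 0 and both Th2 pairs on the other, 23 with a higher and 6 with a lower response in Th17. Pairs of that kind, whether or not the gene passed, were seen for 10.7% of all genes tested. The pairs of the cell types did not overlap for 38 of the 39 genes, and for 35.1% of all genes tested. A response that passed in both cell types with opposite signs was seen for 3 genes, Fmo1, Akap6 and Gm48161, whose reads are of uncertain origin as described further on. Across cell types the genotype responses were mostly shared in direction where both passed: of 45 genes that passed in Th17 and in Th2, 42 had the same sign. Across 5210 well-measured genes (mean log2 CPM of at least 5), Pearson's r between the Th17 and the Th2 response was 0.37, each response being a mean over 2 days. Between the single pairs of the 2 days, r over the same genes was 0.29 within Th17 and 0.25 within Th2. A low r between cell types is thus not by itself a sign of unlike responses, and genes are not independent replicates.

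**Figure D1:**
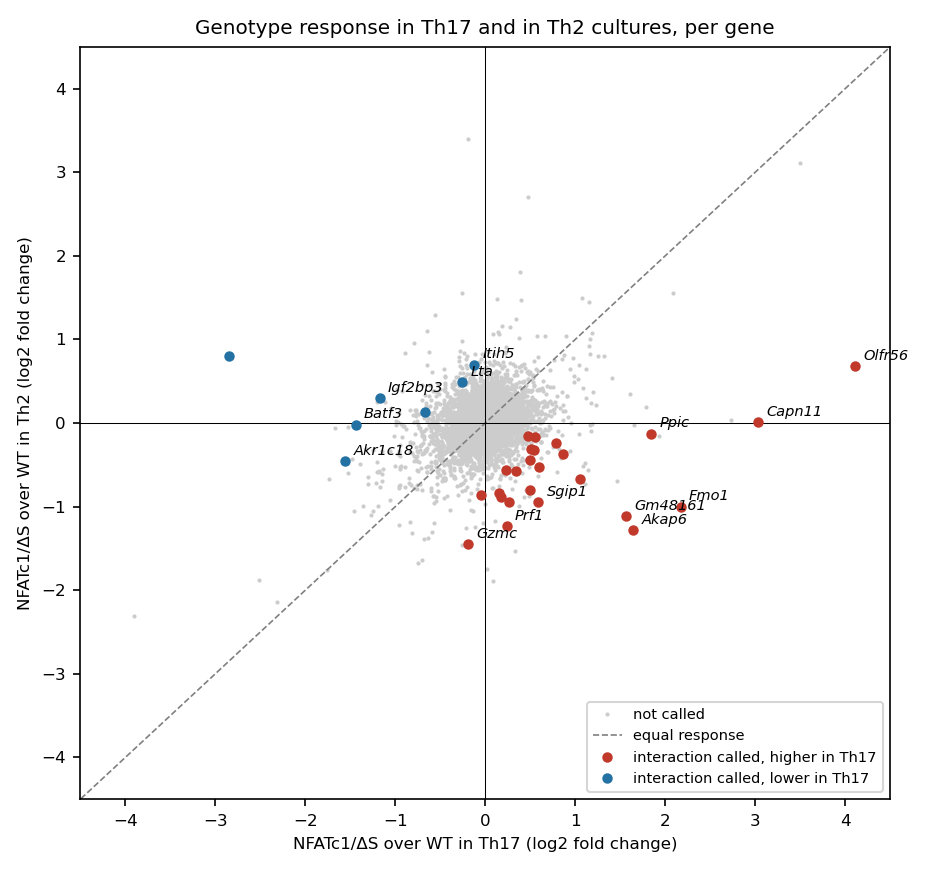
Log2 fold change of NFATc1/ΔS over WT in Th17 (horizontal axis) and in Th2 (vertical axis) for genes with a mean log2 CPM of at least 1; red and blue points are genes that passed in the interaction with a higher or lower response in Th17, and the dashed line marks equal responses. Capn11 lies at 3.03 in Th17 and 0.01 in Th2, while Gzmc and Prf1 lie near 0 in Th17 and at -1.45 and -1.23 in Th2.

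These calls depend on treating the libraries of 1 day as a pair and on the libraries in the fit. With day left out of the model, 0 genes passed in the interaction (151 at an unadjusted p under 0.05), and with the 4 Th1 libraries added, 0 passed (206 unadjusted). With the Th1 pair of day 3.5 added alone, 40 passed, 39 of them the same genes. That pair has as many terms of its own in the model as libraries, so it adds nothing to the estimate of spread. The like count was thus nearly fixed in advance and does not speak for the calls. The values themselves hardly moved in those fits: Capn11 was 3.01 and 3.07, and Batf3 was -1.42 in both. They could hardly move, because each cell type has its own terms in the model and each genotype has the same days. Their steadiness therefore does not speak for the calls.

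Among cytotoxic genes, Prf1 encodes perforin, which opens the membrane of a target cell, and the granzymes are the proteases that enter through it. Prf1 had 14.3 and 6.86 CPM at days 2.5 and 3.5 in NFATc1/ΔS Th17 cells against 11.6 and 6.14 CPM in WT Th17 cells, and 12.2 and 7.65 CPM in NFATc1/ΔS Th2 cells against 25.3 and 20.7 CPM in WT Th2 cells. The gene lies on the plus strand of chromosome 10 from 61297833 to 61304680 (GRCm38, from the deposited tables). Both WT Th2 libraries were the highest of the 8, and those of NFATc1/ΔS Th2 cells lay within the range of the Th17 libraries. The response was 0.24 ± 0.15 in Th17 (log2, SE; edgeR adjusted p = 0.644) and -1.23 ± 0.14 in Th2 (adjusted p = 0.000503), and the interaction was 1.47 ± 0.21 (adjusted p = 0.0119).

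Gzmb, granzyme B, on the minus strand of chromosome 14 from 56258838 to 56262260, had 149 and 102 CPM in NFATc1/ΔS Th17 cells against 141 and 115 CPM in WT Th17 cells, and 261 and 279 CPM in NFATc1/ΔS Th2 cells against 426 and 568 CPM in WT Th2 cells. The genotypes overlapped in Th17, and in Th2 both NFATc1/ΔS libraries lay below both WT libraries. The response was -0.05 ± 0.10 in Th17 and -0.87 ± 0.10 in Th2 (adjusted p = 0.00045), with an interaction of 0.82 ± 0.14 (adjusted p = 0.0253). Gzmc, granzyme C, a relative of granzyme B in the same gene cluster of chromosome 14, had 7.35 and 8.94 CPM in NFATc1/ΔS Th17 cells against 8.06 and 10.5 CPM in WT Th17 cells, and 4.36 and 12.6 CPM in NFATc1/ΔS Th2 cells against 12.0 and 34.5 CPM in WT Th2 cells. In Th2 Gzmc was higher at day 3.5 than at day 2.5, and within each day the NFATc1/ΔS library was the lower. Its response in Th2 was -1.45 ± 0.14 (adjusted p = 0.000118), its interaction 1.26 ± 0.20 (adjusted p = 0.0189). Neither granzyme passed in the interaction without the Th2 day 3.5 pair.

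Nkg7, a membrane protein of cytotoxic granules, had 14.04 and 8.94 CPM in NFATc1/ΔS Th17 cells against 11.2 and 8.90 CPM in WT Th17 cells, and 12.8 and 8.95 CPM in NFATc1/ΔS Th2 cells against 22.2 and 17.7 CPM in WT Th2 cells. As for Prf1, both WT Th2 libraries stood above the other 6. Its response in Th2 was -0.89 ± 0.14 (adjusted p = 0.00617) and its interaction 1.06 ± 0.20, close to the threshold (adjusted p = 0.0483), and it did not pass without the Th2 day 3.5 pair or without the Th17 day 2.5 pair.

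The list of cytotoxic effectors and NK receptors held 26 genes, of which 18 were tested and 8, such as Gzmd, Gzmk and Ncr1, had too few reads. In the interaction 4 of 18 passed, all higher in Th17 than in Th2, and 14 did not. The interaction was above 0 for 18 of 18, against 6567 of 13086 genes tested, and the median of the list was 0.69, against 0.00 for all genes. In Th2 7 of 18 fell and none rose (0.718% of all genes fell), with a median response of -0.46. In Th17 0 of 18 passed by edgeR, DESeq2 or limma-voom (2 at an unadjusted p under 0.05), with a median of 0.10. Without the Th2 day 3.5 pair 1 of 18 passed in the interaction and 4 fell in Th2, and DESeq2 gave the same counts. The list was chosen with results of these samples known, so the direction of its count is not independent evidence.

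The other 3 members that fell in Th2, chosen after their values were seen, were Gzma, Klrk1 and Klrc1. Gzma, granzyme A, had 62.7 and 48.9 CPM in NFATc1/ΔS Th2 cells against 175 and 179 CPM in WT Th2 cells, a response of -1.68 (adjusted p = 6.13e-06). In Th17 it was scarce, with 5.00 and 2.18 CPM in NFATc1/ΔS against 7.71 and 4.14 CPM in WT cells, a response of -0.74 that did not pass, and its interaction of 0.93 did not pass either (adjusted p = 0.14). Klrk1 and Klrc1, which encode the NK receptors NKG2D and NKG2A, had Th2 responses of -1.53 (adjusted p = 0.0377) and -1.17 (adjusted p = 0.0211). They were low throughout, with Klrk1 at 1.31 and 1.30 CPM in NFATc1/ΔS Th2 cells against 3.75 and 3.79 CPM in WT Th2 cells. Lamp1 and Ctsd, general lysosomal genes on the list, had interactions of 0.06 and 0.34 that did not pass.

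**Figure D2:**
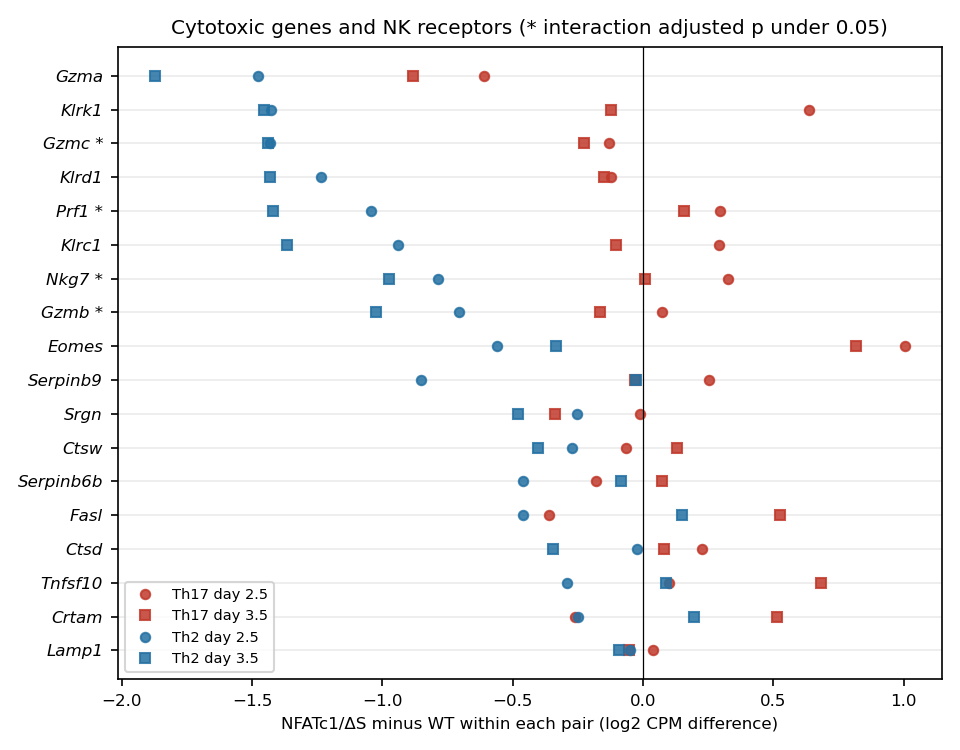
Difference in log2 CPM between NFATc1/ΔS and WT within each pair for the 18 tested cytotoxic genes and NK receptors, red for Th17 and blue for Th2, circles for day 2.5 and squares for day 3.5. Both Th2 pairs lie left of both Th17 pairs for 12 of the 18. These are Gzma, Klrk1, Gzmc, Klrd1, Prf1, Klrc1, Nkg7, Gzmb, Eomes, Ctsw, Ctsd and Tnfsf10. The pairs of the cell types did not overlap, in either direction, for 35.1% of all genes tested. Stars mark the 4 genes that passed in the interaction.

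In bulk libraries, fewer cells of a type and less RNA per cell cannot be told apart, so markers of other lymphocytes are given beside the cytotoxic genes. The CD8 chains did not fall in Th2: Cd8a had 8.07 and 5.26 CPM in NFATc1/ΔS Th2 cells against 8.02 and 5.17 CPM in WT Th2 cells, and Cd8b1 had 21.3 and 17.7 CPM in NFATc1/ΔS Th2 cells against 22.1 and 17.9 CPM in WT Th2 cells. In Th17 Cd8a fell, with 9.71 and 6.66 CPM in NFATc1/ΔS Th17 cells against 18.1 and 13.7 CPM in WT Th17 cells (-0.97, adjusted p = 0.00344), and its interaction of -0.99 did not pass (adjusted p = 0.112). The NK markers Ncr1 and Klrb1c were at or near 0 in all 8 libraries, with at most 0.75 CPM. The 12 CD8 and NK cell markers summed to 59.9 and 39.9 CPM in NFATc1/ΔS Th17 cells, 64.3 and 45.7 CPM in WT Th17 cells, 46.4 and 35.7 CPM in NFATc1/ΔS Th2 cells and 62.3 and 48.8 CPM in WT Th2 cells; 6 of them were tested, 4 of these also stand on the cytotoxic list, and 2, Klrk1 and Nkg7, fell in Th2.

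Transcripts of the γ and δ T cell receptor chains were also measured. The constant genes Tcrg-C1, Tcrg-C2, Tcrg-C4 and Trdc summed to 5.37 and 4.93 CPM in NFATc1/ΔS Th17 cells against 4.17 and 3.31 CPM in WT Th17 cells, and to 5.38 and 4.92 CPM in NFATc1/ΔS Th2 cells against 9.52 and 9.66 CPM in WT Th2 cells. Both WT Th2 libraries were again the highest. Tcrg-C2, the most abundant of them, had an interaction of 1.37 ± 0.41 that did not pass (adjusted p = 0.341), and none of the 7 tested of 10 γδ T and innate lymphoid markers passed in the interaction by edgeR (3 at an unadjusted p under 0.05). Of these 7 interactions, 4 were above 0, those of the constant genes. Kit, the receptor for stem cell factor, fell in Th17 (-0.99, adjusted p = 0.00365) and had a response of 0.02 in Th2 that did not pass, with an interaction of -1.01 ± 0.34 that did not pass (adjusted p = 0.539). Gm43434, a transcript antisense to Trdc that did pass, had an interaction of 1.29 ± 0.25 (adjusted p = 0.0452), from reads of which 7.24% were unique, and did not pass on unique reads alone. The part of γδ T cells or other innate-like cells in the fall of the cytotoxic genes was not tested.

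The promoters of the 4 cytotoxic genes that passed are shown because they moved together, from 250 bases before to 50 after the start of the gene in RefSeq on GRCm38.p6, 5′ to 3′ on the strand of the gene. Capitals mark the NFAT core GGAAA and the AP-1 site TGANTCA, each searched on both strands.
Prf1 promoter, chr10:61297586-61297885, plus strand: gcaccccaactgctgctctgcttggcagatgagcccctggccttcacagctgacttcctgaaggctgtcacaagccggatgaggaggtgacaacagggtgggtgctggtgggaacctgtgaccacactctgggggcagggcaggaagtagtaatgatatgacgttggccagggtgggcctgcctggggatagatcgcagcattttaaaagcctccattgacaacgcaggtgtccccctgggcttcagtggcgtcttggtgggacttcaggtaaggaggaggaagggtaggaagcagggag
Gzmb promoter, chr14:56262285-56262584, minus strand: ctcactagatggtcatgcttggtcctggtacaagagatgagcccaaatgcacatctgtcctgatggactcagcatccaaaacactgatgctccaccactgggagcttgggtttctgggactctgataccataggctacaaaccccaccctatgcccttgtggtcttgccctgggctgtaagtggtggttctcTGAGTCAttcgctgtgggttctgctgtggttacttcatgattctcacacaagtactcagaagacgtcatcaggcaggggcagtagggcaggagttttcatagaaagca
Gzmc promoter, chr14:56234608-56234907, minus strand: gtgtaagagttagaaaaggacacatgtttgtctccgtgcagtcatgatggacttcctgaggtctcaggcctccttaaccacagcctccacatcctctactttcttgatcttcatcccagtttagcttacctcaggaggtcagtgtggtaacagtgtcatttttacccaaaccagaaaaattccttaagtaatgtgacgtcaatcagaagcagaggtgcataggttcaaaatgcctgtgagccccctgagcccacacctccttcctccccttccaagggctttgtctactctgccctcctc
Nkg7 promoter, chr7:43436888-43437187, plus strand: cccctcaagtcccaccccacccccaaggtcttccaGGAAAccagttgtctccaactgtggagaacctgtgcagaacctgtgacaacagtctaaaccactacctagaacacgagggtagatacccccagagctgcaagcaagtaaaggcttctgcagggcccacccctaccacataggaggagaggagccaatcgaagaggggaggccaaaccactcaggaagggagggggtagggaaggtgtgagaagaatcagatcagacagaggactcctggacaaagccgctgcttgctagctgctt
Nkg7 holds 1 GGAAA, Gzmb holds 1 AP-1 match, and neither motif is in the windows of Prf1 and Gzmc. Of all 32851 RefSeq promoters of this length, 61.3% hold GGAAA and 7.81% the AP-1 site. Of the 20 promoters found for genes with a higher response in Th17, 13 hold GGAAA and 4 the AP-1 site, and of the 7 for genes with a lower response, 6 hold GGAAA and 0 the AP-1 site. No match printed here overlaps a match of the other motif, and a match is a description of the window only.

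Capn11, on the minus strand of chromosome 17 from 45630204 to 45659325 (GRCm38), encodes a calpain, a calcium-dependent cysteine protease best known from testis. It had 8.90 and 14.2 CPM in NFATc1/ΔS Th17 cells against 0.76 and 2.07 CPM in WT Th17 cells, and 13.4 and 17.2 CPM in NFATc1/ΔS Th2 cells against 15.4 and 14.9 CPM in WT Th2 cells. WT Th17 cells were the group that stood apart, far below the other 6 libraries, and the genotypes overlapped in Th2. The response was 3.03 ± 0.23 in Th17 (adjusted p = 9.63e-06) and 0.01 ± 0.16 in Th2, an interaction of 3.02 ± 0.28 (adjusted p = 0.000374). Of its reads, 46.3% lay in introns. Of the 10 calpains and partners tested, Capn11 was the only gene to pass in the interaction, in Th17 or in Th2 by edgeR, and Capn1, Capn2 and the shared small subunit Capns1 had interactions between 0.02 and 0.15. In the Th1 pairs, which had no part in the fit, Capn11 was lower in NFATc1/ΔS, by -2.73 at day 2.5 and -1.59 at day 3.5 (log2 CPM differences, no test). These rest on few reads, with 0.07 and 0.28 CPM in NFATc1/ΔS Th1 cells against 1.19 and 1.11 CPM in WT Th1 cells.

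Batf3, on the plus strand of chromosome 1 from 191097847 to 191108945, is a basic leucine zipper factor that pairs with Jun proteins and is needed for a class of dendritic cells. It had 4.93 and 12.4 CPM in NFATc1/ΔS Th17 cells against 14.2 and 32.7 CPM in WT Th17 cells, and 16.1 and 44.0 CPM in NFATc1/ΔS Th2 cells against 17.5 and 42.4 CPM in WT Th2 cells. Levels were higher at day 3.5 in every group, and at each day the NFATc1/ΔS Th17 library was the lowest of the 4. The response was -1.44 ± 0.13 in Th17 (adjusted p = 4.02e-05) and -0.02 ± 0.11 in Th2, an interaction of -1.42 ± 0.17 (adjusted p = 0.00304). Its promoter is shown in the same way, with 1 GGAAA on the printed strand or its complement in capitals. RefSeq places the start of Batf3 further in than the coordinates above, so the window lies wholly within the gene as placed there.
Batf3 promoter, chr1:191098164-191098463, plus strand: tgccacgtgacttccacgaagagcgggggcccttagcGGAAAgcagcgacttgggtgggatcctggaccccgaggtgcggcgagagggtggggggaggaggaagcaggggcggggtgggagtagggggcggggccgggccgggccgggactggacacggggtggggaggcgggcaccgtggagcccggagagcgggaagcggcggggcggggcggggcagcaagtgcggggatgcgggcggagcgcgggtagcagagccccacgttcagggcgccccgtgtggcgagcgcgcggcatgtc
Of the 23 AP-1, BATF and IRF factors tested, Batf3 was the 1 that passed in the interaction, and the median interaction of the list was 0.09. Atf3, a stress-induced bZIP factor chosen after its values were seen, had a like pattern short of the threshold, with 15.1 and 16.8 CPM in NFATc1/ΔS Th17 cells against 23.6 and 27.5 CPM in WT Th17 cells, and an interaction of -0.75 ± 0.15 (adjusted p = 0.0522). Batf itself had an interaction of 0.06 ± 0.12 and Irf4 of -0.07 ± 0.13. Fos rose in both cell types, by 0.72 in Th17 and 0.63 in Th2, with an interaction of 0.09.

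**Figure D3:**
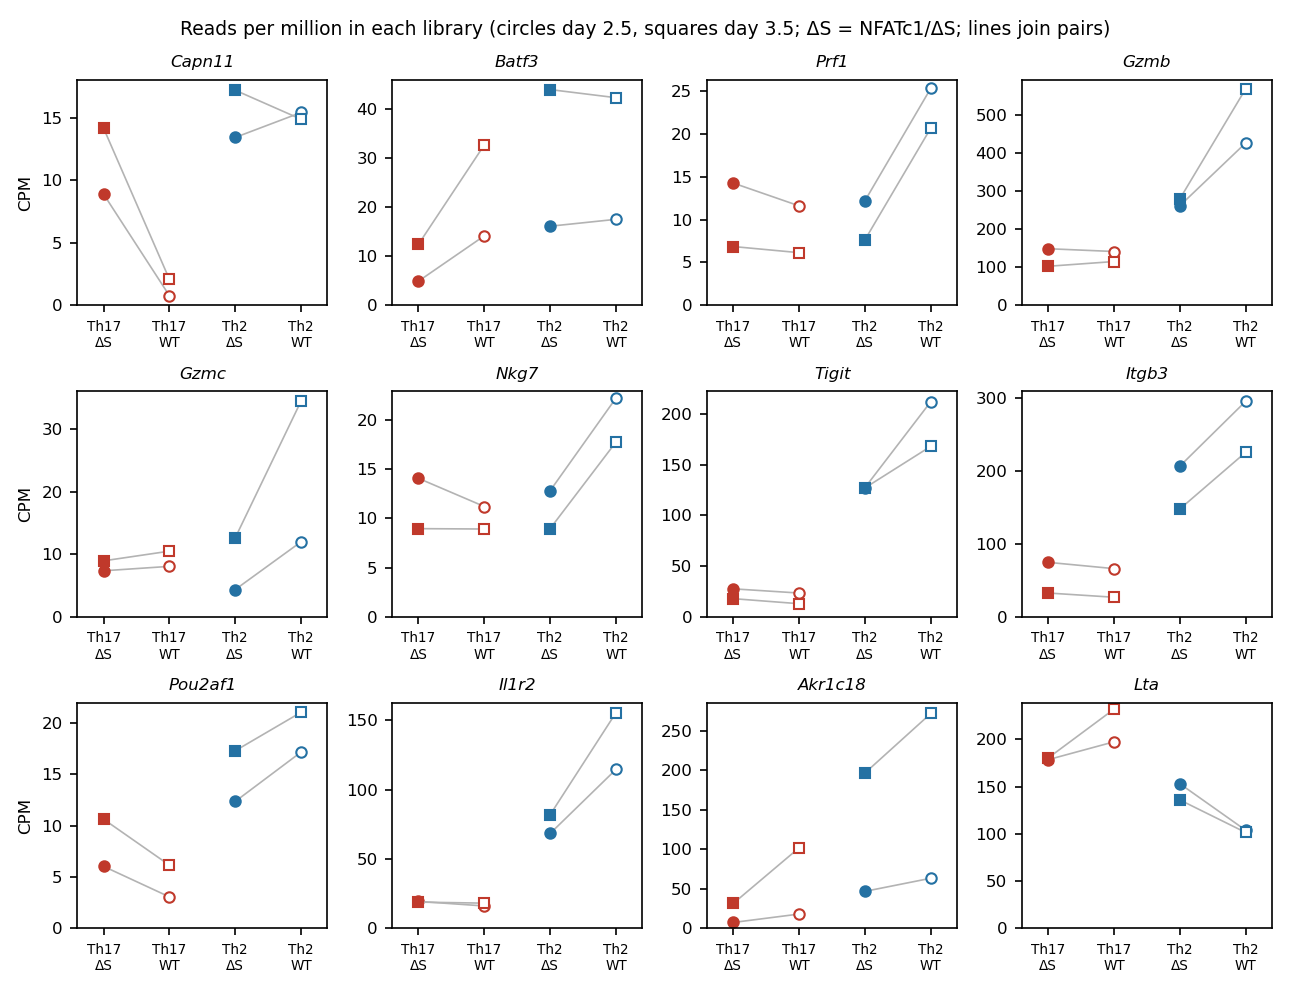
CPM in each of the 8 libraries for 12 genes that passed in the interaction, with NFATc1/ΔS (filled) left of WT (open) for Th17 (red) and Th2 (blue); circles are day 2.5, squares day 3.5, and grey lines join pairs. Capn11 and Batf3 differ between genotypes in Th17, and Prf1, Gzmb, Gzmc, Nkg7 and Il1r2 in Th2.

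The surface receptor genes Il1r2, Tigit and Itgb3 fell in NFATc1/ΔS Th2 cells, with Th17 responses above 0 that did not pass. Il1r2, the decoy receptor for interleukin-1, had 19.4 and 18.9 CPM in NFATc1/ΔS Th17 cells against 16.1 and 18.2 CPM in WT Th17 cells, and 68.4 and 81.9 CPM in NFATc1/ΔS Th2 cells against 115 and 156 CPM in WT Th2 cells. It was a gene of Th2 cells in both genotypes, and it fell there by 0.84 on the log2 scale (adjusted p = 0.000248), with an interaction of 0.99 ± 0.14 (adjusted p = 0.0113).

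Tigit, an inhibitory receptor for nectin-like ligands, had 27.6 and 17.9 CPM in NFATc1/ΔS Th17 cells against 23.4 and 12.9 CPM in WT Th17 cells, and 127 and 127 CPM in NFATc1/ΔS Th2 cells against 212 and 168 CPM in WT Th2 cells. Its pairs pointed up in Th17, where the response did not pass, and down in Th2, where it did (-0.57 ± 0.09, adjusted p = 0.00854), with an interaction of 0.91 ± 0.15 (adjusted p = 0.0239) that did not pass without the Th17 day 3.5 pair. It was the 1 of 13 co-inhibitory receptors tested that passed in the interaction. Ctla4, of the same list and chosen after its values were seen, fell about equally in both cell types, by 0.51 in Th17 and 0.55 in Th2 on the log2 scale, with an interaction of 0.04. Itgb3, the integrin β3 chain, had 74.6 and 32.6 CPM in NFATc1/ΔS Th17 cells against 65.9 and 26.8 CPM in WT Th17 cells, and 206 and 148 CPM in NFATc1/ΔS Th2 cells against 295 and 225 CPM in WT Th2 cells. It fell in Th2 (-0.56 ± 0.08, adjusted p = 0.00272), and its interaction was 0.79 ± 0.12 (adjusted p = 0.0148).

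Ly6c1, a surface protein of memory and effector T cells with 58.0% unique reads and near-identical relatives, had an interaction of 1.12 ± 0.20 (adjusted p = 0.027), which did not pass without the Th2 day 3.5 pair; its responses of 0.60 in Th17 and -0.52 in Th2 did not pass singly. Of the 19 naive and memory genes tested, 2 passed in the interaction, Ly6c1 among them, and the median was 0.18. Of the list, 5 rose in Th17 (0.703% of all genes rose), among them Tcf7, Klf2, Actn1 and Dapl1, and 1, Actn1, rose in Th2 (0.214% of all genes). These 4 were chosen after their values were seen. Tcf7, a factor of naive and stem-like T cells, had 448 and 458 CPM in NFATc1/ΔS Th17 cells against 329 and 331 CPM in WT Th17 cells, and 307 and 237 CPM in NFATc1/ΔS Th2 cells against 273 and 226 CPM in WT Th2 cells. Its interaction of 0.34 did not pass (adjusted p = 0.548), and for Klf2, Actn1 and Dapl1 the interactions of 0.51, 0.04 and 0.76 did not pass.

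Pou2af1, also known as OCA-B, a coactivator of octamer factors with a role in follicular helper and memory T cells, had 6.03 and 10.6 CPM in NFATc1/ΔS Th17 cells against 3.06 and 6.14 CPM in WT Th17 cells, and 12.4 and 17.3 CPM in NFATc1/ΔS Th2 cells against 17.2 and 21.04 CPM in WT Th2 cells. The cell types thus lay nearer to each other in NFATc1/ΔS than in WT cells. That was not particular to Pou2af1: the same held for Capn11, Prf1, Gzmb, Tigit, Il1r2, Itgb3 and Lta, among others. For Batf3, Akr1c18 and Ms4a4b the cell types lay further apart in NFATc1/ΔS. The WT libraries enter both the gap between cell types and the responses, so the 2 are not independent. Pou2af1 rose in Th17 (0.86 ± 0.17, adjusted p = 0.017), had -0.37 ± 0.14 in Th2 (adjusted p = 0.325) and an interaction of 1.24 ± 0.22 (adjusted p = 0.027). It was the 1 of 17 follicular helper genes that passed. Yap1, the transcriptional coactivator of the Hippo pathway, had 5.29 and 3.00 CPM in NFATc1/ΔS Th17 cells against 2.92 and 1.17 CPM in WT Th17 cells, and 4.36 and 6.08 CPM in NFATc1/ΔS Th2 cells against 7.87 and 8.69 CPM in WT Th2 cells, an interaction of 1.72 ± 0.32 (adjusted p = 0.0415). Neither passed without the Th17 day 3.5 pair.

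Lta, lymphotoxin α, a TNF family cytokine, was the 1 of 25 cytokine genes tested that passed in the interaction. It had 179 and 180 CPM in NFATc1/ΔS Th17 cells against 197 and 232 CPM in WT Th17 cells, and 153 and 136 CPM in NFATc1/ΔS Th2 cells against 104 and 101 CPM in WT Th2 cells. Lta rose in Th2 (0.49 ± 0.09, adjusted p = 0.0144), had -0.26 ± 0.09 in Th17 (adjusted p = 0.207), and its interaction of -0.75 ± 0.12 (adjusted p = 0.023) did not pass without the Th17 day 3.5 pair. Tnf, its neighbour on chromosome 17, had 17.9 and 14.9 CPM in NFATc1/ΔS Th17 cells against 26.9 and 18.2 CPM in WT Th17 cells, and 11.3 and 12.3 CPM in NFATc1/ΔS Th2 cells against 10.3 and 7.59 CPM in WT Th2 cells. Its pairs pointed the same ways as those of Lta, and its interaction of -0.86 ± 0.22 did not pass (adjusted p = 0.179).

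Of the other genes with a lower response in Th17, Akr1c18 encodes a hydroxysteroid dehydrogenase that inactivates progesterone. It had 7.43 and 31.6 CPM in NFATc1/ΔS Th17 cells against 18.1 and 102 CPM in WT Th17 cells, and 46.8 and 197 CPM in NFATc1/ΔS Th2 cells against 63.4 and 272 CPM in WT Th2 cells. NFATc1/ΔS was the lower in all 4 pairs, more so in Th17 (-1.56 ± 0.11, adjusted p = 8.65e-06) than in Th2 (-0.45 ± 0.09, adjusted p = 0.0334), and the interaction was -1.10 ± 0.14 (adjusted p = 0.00588). Both responses thus had the same sign and differed in size. The interaction did not pass without the Th17 day 3.5 pair.

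Igf2bp3, an RNA-binding protein of fetal tissues, had 5.96 and 8.43 CPM in NFATc1/ΔS Th17 cells against 13.1 and 19.5 CPM in WT Th17 cells, and 6.69 and 7.59 CPM in NFATc1/ΔS Th2 cells against 4.80 and 6.83 CPM in WT Th2 cells. It fell in Th17 and was the higher in NFATc1/ΔS in both Th2 pairs, with an interaction of -1.47 ± 0.23 (adjusted p = 0.0175). Its locus overlaps Malsu1 on the opposite strand, and with a kit not labelled as stranded some reads may belong to Malsu1. Dennd5a, an exchange factor for a Rab protein, fell in Th17, with 74.4 and 74.4 CPM in NFATc1/ΔS against 117 and 120 CPM in WT cells, and had 40.9 and 49.5 CPM in NFATc1/ΔS Th2 cells against 36.8 and 45.5 CPM in WT Th2 cells, an interaction of -0.80 ± 0.12 (adjusted p = 0.0148). Itih5, a hyaluronan-binding matrix protein, moved in Th2 instead. It had 44.0 and 83.7 CPM in NFATc1/ΔS Th17 cells against 53.2 and 83.3 CPM in WT Th17 cells, and 33.5 and 40.0 CPM in NFATc1/ΔS Th2 cells against 21.4 and 23.8 CPM in WT Th2 cells, an interaction of -0.82 ± 0.14 (adjusted p = 0.026).

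Ppic, cyclophilin C, a peptidyl-prolyl isomerase that binds cyclosporin, had 3.53 and 5.23 CPM in NFATc1/ΔS Th17 cells against 0.97 and 1.45 CPM in WT Th17 cells, and 5.67 and 5.33 CPM in NFATc1/ΔS Th2 cells against 6.00 and 6.00 CPM in WT Th2 cells. As for Capn11, WT Th17 cells stood apart below the other groups. Its interaction was 1.97 ± 0.33 (adjusted p = 0.0239), and it did not pass without the Th17 day 3.5 pair. Ppic lies on chromosome 18 at 53406341 to 53418007, the chromosome that also carries Nfatc1.

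**Figure D4:**
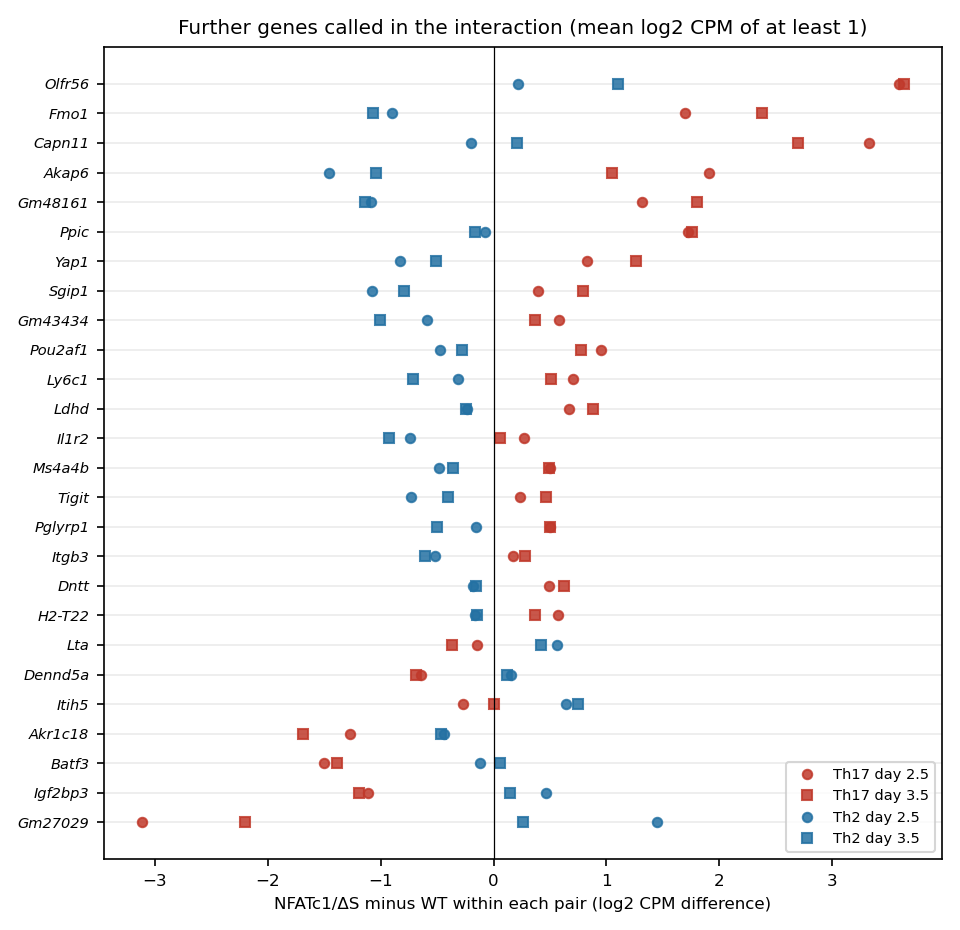
Difference in log2 CPM between NFATc1/ΔS and WT within each pair for genes that passed in the interaction other than the 4 cytotoxic genes, with a mean log2 CPM of at least 1; red is Th17, blue is Th2, circles are day 2.5 and squares day 3.5. From Olfr56 down to H2-T22 the Th17 pairs lie right of the Th2 pairs, and from Lta down they lie left of them.

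For 17 of the 39 genes under 80% of the reads were unique or over 20% lay in introns, Capn11 among them. These include all 3 genes with opposite responses that passed in both cell types. Fmo1, a flavin monooxygenase, had 3.68 and 3.81 CPM in NFATc1/ΔS Th17 cells against 1.04 and 0.62 CPM in WT Th17 cells, and 6.83 and 5.67 CPM in NFATc1/ΔS Th2 cells against 12.9 and 12.1 CPM in WT Th2 cells, an interaction of 3.17 ± 0.35 (adjusted p = 0.0015), but 0.45% of its reads were unique. Akap6, an anchor of protein kinase A, had responses of 1.65 in Th17 and -1.28 in Th2 and an interaction of 2.93 ± 0.46 (adjusted p = 0.0175), with 94.2% of reads in introns. Gm48161, a transcript within an intron of Agtr1a and named after its values were seen, had responses of 1.56 in Th17 and -1.12 in Th2, with 3.24% unique reads, and no longer passed when unique reads alone were counted. For Fmo1 and Gm48161, the copies that the shared reads come from cannot be told from the counts.

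Sgip1, an endocytic adaptor, had an interaction of 1.53 ± 0.20 (adjusted p = 0.00552) from 17.1% unique reads, and it did not pass on unique reads alone. Olfr56, an odorant receptor gene, rose in Th17 by 4.11 and had an interaction of 3.43 ± 0.53 (adjusted p = 0.0173). Of its reads 87.3% lay in introns, and its locus overlaps the interferon-inducible Ifi47, Tgtp1 and Tgtp2, so that reads of these genes and of Olfr56 may not have been told apart. Among the 22 genes with at least 80% unique and at most 20% intron reads, 16 had a higher and 6 a lower response in Th17, 17 had pairs on opposite sides of 0, and 0 passed in both cell types with opposite signs. For that last count, Th17 and Th2 responses were each tested by edgeR in the same fit.

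No gene that defines the lineages passed in the interaction. Il17a and Il17f fell in Th17, Il17a with 5.59 and 5.44 CPM in NFATc1/ΔS against 17.2 and 12.4 CPM in WT cells and Il17f with 14.3 and 7.98 CPM in NFATc1/ΔS against 58.9 and 20.6 CPM in WT cells. Both were scarce in Th2, and their interactions of -0.91 ± 0.38 and -1.07 ± 0.74 did not pass (adjusted p = 0.692 and 0.926). Il13 fell in both, by 1.22 in Th17 and by 0.72 in Th2, with an interaction of -0.49 ± 0.16 (adjusted p = 0.475). Maf, a factor that drives interleukin-4, interleukin-10 and interleukin-21, fell about equally, by 1.06 in Th17 and by 0.92 in Th2, with an interaction of -0.14 ± 0.14. Il5 fell in Th2 (-1.06, adjusted p = 0.00358) and was near 0 CPM in Th17.

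Gata3, Il4, Ifng, Il2, Il2ra, Foxp3, Tbx21, Prdm1 and Nfatc2 had interactions between -0.83 for Il2 and 0.65 for Prdm1, with adjusted p from 0.63 up, and the smallest was that of Nfatc2. A p that misses the threshold does not show that the responses were equal, and the SE was 0.12 for Gata3 and 0.57 for Il2.

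By edgeR, 0 genes passed in the interaction among 17 Th2 genes (5 at an unadjusted p under 0.05), 17 Th17 genes (4), 19 regulatory T cell genes (2), 26 NFAT target genes (2), 23 members of the NFAT pathway (1) and 21 members of the SUMO pathway (0). The same held for the lists of cell cycle, glycolysis, sterol synthesis, the ATF4 and unfolded protein responses, the interferon response, ribosome biogenesis and mitochondrially encoded genes. Of the first 6 lists, the 4 members of smallest p were Ccr4, a Th2 chemokine receptor, with -0.55 ± 0.12 (adjusted p = 0.0746), Ikzf4 of the regulatory T cell genes with -0.57 ± 0.14 (adjusted p = 0.148), Tnf of the NFAT target genes with -0.86 ± 0.22 (adjusted p = 0.179) and Socs3 of the Th17 genes with 0.56 ± 0.15 (adjusted p = 0.284). Ccr4 fell in Th17, with 69.1 and 71.7 CPM in NFATc1/ΔS against 103 and 101 CPM in WT cells, and had 202 and 197 CPM in NFATc1/ΔS Th2 cells against 210 and 187 CPM in WT Th2 cells.

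**Figure D5:**
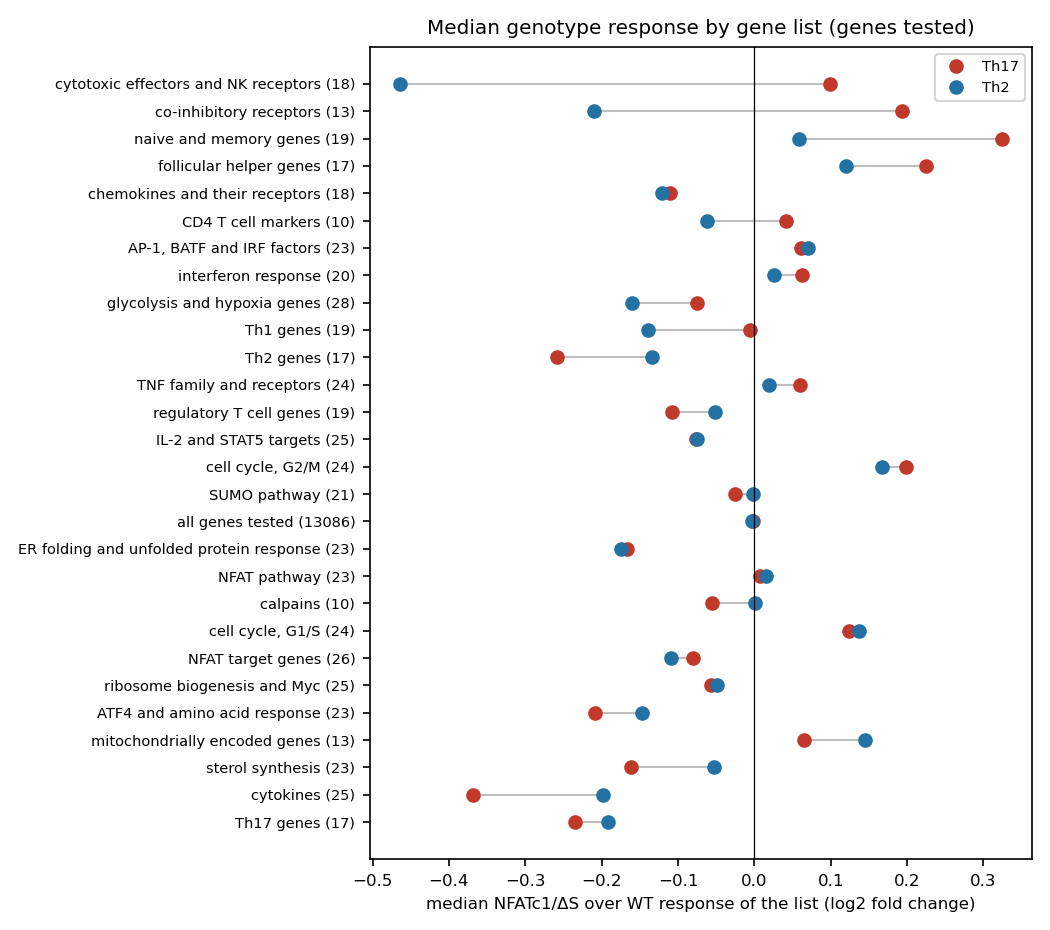
Median log2 fold change of NFATc1/ΔS over WT in Th17 (red) and in Th2 (blue) for gene lists and for all genes tested (the marker lists of B, myeloid, CD8 T and NK, γδ T and innate lymphoid, and erythroid cells are not drawn), ordered by the median interaction, with the number of genes tested in brackets. The cytotoxic list has medians of 0.10 in Th17 and -0.46 in Th2, and the co-inhibitory receptors have 0.19 and -0.21. Among lists not drawn, the medians lay further apart than in the cytotoxic list for CD8 T and NK markers (0.10 and -0.68, 6 tested). The same held for γδ T and innate lymphoid markers (0.04 and -0.64, 7 tested) and erythroid and platelet markers (-0.09 and 0.91, 6 tested). B cell markers had 0.02 and -0.27 (13 tested), and myeloid and dendritic cell markers 0.18 and -0.29 (8 tested).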

How the data were processed

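Per the labels, poly(A) RNA libraries were made from cultured mouse CD4+ T cells. The authors deposited a table per library with whole-number read counts per gene, per the file headers; the build is GRCm38, per the submitters' processing notes. The aligner and the counter are not stated in the sources used here. The kit is not labelled as stranded. Total gene reads (counts that include non-unique reads) of 8 libraries, 13417121 to 17774400 each, were used as deposited.

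Counts were tested with edgeR 4.0.16 (R 4.3.3): TMM factors, low counts filtered by filterByExpr with min.count 10 and min.total.count 15, a quasi-likelihood fit with robust estimation, Benjamini-Hochberg adjustment over 13086 genes, threshold 0.05. The model held cell type, day within cell type (the pair block; pairs come from the labels' shared cell type and day) and genotype within cell type, with 2 residual degrees of freedom and a biological coefficient of variation of 7.63%. An SE was obtained as |log2 fold change| divided by √F. A prior count of 2 was added for log2 CPM. No sample of the 8 was dropped. Scripts were tested on simulated data. The reads carry no molecular identifiers.

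Genes were named by rule: 4 marker genes, the 12 largest interactions each way that passed (mean log2 CPM of at least 1, pairs apart, no clone name), list members that passed or of smallest p, 15 fixed genes, and 10 genes of smallest p with opposite pairs. A few genes are kept in all fits and counts but are not reported here. Members and lists were chosen with earlier results of these data known. Alternatives used RLE size factors, DESeq2 1.42.0, limma-voom (limma 3.58.1), other filters and reads, other libraries, no block, glmTreat and each pair left out; the fit of 10 libraries was added after seeing the data. Promoters are those of RefSeq on GRCm38.p6, matched by symbol.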

Additional observations from a re-analysis of the deposited data

Results flagged for a closer look

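Each of the 28 genes listed here is a difference between the genotype responses of Th17 and Th2 cells, found by the interaction term of the edgeR fit. The values are interactions in log2 fold change, Th17 minus Th2, over 2 pairs in each cell type.

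Cytotoxic genes with this difference were Prf1 (1.47), Gzmc (1.26), Nkg7 (1.06) and Gzmb (0.82). Receptors and surface proteins were Ly6c1 (1.12, with 58.0% unique reads), Il1r2 (0.99), Ms4a4b (0.94), Tigit (0.91) and Itgb3 (0.79). Transcription factors and coactivators were Yap1 (1.72), Pou2af1 (1.24) and Batf3 (-1.42). Enzymes and other proteins were Capn11 (3.02, with 46.3% of reads in introns), Ppic (1.97), Ldhd (1.03), Pglyrp1 (0.82), Dntt (0.72), Dennd5a (-0.80), Igf2bp3 (-1.47), Akr1c18 (-1.10) and Itih5 (-0.82), and the cytokine was Lta (-0.75). Further genes with under 80% unique or over 20% intron reads were Olfr56 (3.43), Fmo1 (3.17), Akap6 (2.93), Gm48161 (2.68), Sgip1 (1.53) and Gm43434 (1.29).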

How the results depend on the processing

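Counts of genes that passed are given for the interaction, for Th17, for Th2, and for interaction genes with opposite pairs, in this order, where they moved by over 1.5 times from 39, 225, 122 and 29. DESeq2 gave 13, 88, 51 and 9, no read filter 167, 501, 357 and 95, and glmTreat at a log2 fold change of 0.5 gave 6, 40, 24 and 4. The fit without robust estimation gave 16 for the interaction and 11 with opposite pairs, and unique reads gave 65 for the interaction. No replicate block (day left out of the pairing) gave 0, 0, 1 and 0, and all 12 libraries gave 0 in each, with 206, 440 and 329 genes at an unadjusted p under 0.05 for the first 3. Leaving out each pair in turn gave 60 to 162, 134 to 470, 93 to 282 and 42 to 101; the cause of the higher counts was not tested.

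Of the 39 genes, 38 kept their direction in all fits run. That count follows largely from the pair differences, which did not overlap between the cell types for 38 of the 39 genes. A fit without 1 pair leaves 1 pair in that cell type, so its spread comes from the other cell type alone. Calls gained or lost in such fits are therefore not a check of replication. The Gm26624 interaction log2 fold change turned round: leaving out each pair gave from -8.66 to 0.053 (the highest without the Th17 day 2.5 pair), and day 3.5 alone gave 0.061. Capn11 and Batf3 failed to pass with no block and with 12 libraries only. Prf1 also failed with DESeq2 (as did Gzmc and Nkg7) and with glmTreat. Of the cytotoxic genes, 4 passed in the interaction and 7 fell in Th2; DESeq2 gave 1 and 4, and so did leaving out the Th2 day 3.5 pair. The design has 2 pairs a cell type, and genes without about 10 reads in at least 2 libraries were not tested.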

Other observations

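Other cell types in the cultures are given as summed marker levels. The 17 B cell markers summed to 323 and 192 CPM in NFATc1/ΔS Th17 cells against 318 and 206 CPM in WT Th17 cells, and to 478 and 330 CPM in NFATc1/ΔS Th2 cells against 508 and 425 CPM in WT Th2 cells. The 18 myeloid and dendritic cell markers summed to 95.7 and 91.7 CPM in NFATc1/ΔS Th17 cells against 88.9 and 97.0 CPM in WT Th17 cells, and to 92.7 and 98.1 CPM in NFATc1/ΔS Th2 cells against 95.9 and 129 CPM in WT Th2 cells, with Csf1r at or near 0 CPM. The globin gene Hbb-bs rose in Th2 (1.55, edgeR adjusted p = 0.0214), with 9.74 and 0.89 CPM in NFATc1/ΔS Th2 cells against 3.22 and 0.34 CPM in WT Th2 cells, and its interaction of -1.80 did not pass (adjusted p = 0.0858).

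The Th1 pairs had no part in the main fit and are given as log2 CPM differences, NFATc1/ΔS minus WT, at days 2.5 and 3.5, with no test. They were -0.30 and 0.22 for Prf1, -0.15 and 0.01 for Gzmb, 0.96 and -0.995 for Gzmc, -0.86 and -0.13 for Nkg7, and -0.44 and 0.73 for Batf3. The days disagreed in sign for Prf1, Gzmb, Gzmc and Batf3. Over all genes, the biological coefficient of variation was 16.7% with all 12 libraries in the fit, against 7.63% with the 8 Th17 and Th2 libraries. Disagreement between the Th1 days may thus not be particular to these genes.

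Genes that passed in the interaction and are named here after their values were seen include Dntt, the template-free polymerase of V(D)J joining, with 0.72 ± 0.12 (edgeR adjusted p = 0.0239), Ms4a4b, a T cell membrane protein, with 0.94 ± 0.16 (adjusted p = 0.027), Pglyrp1, a peptidoglycan recognition protein, with 0.82 ± 0.14 (adjusted p = 0.027), and Ldhd, a mitochondrial D-lactate dehydrogenase, with 1.03 ± 0.18 (adjusted p = 0.027). Dntt had 80.1 and 32.8 CPM in NFATc1/ΔS Th17 cells against 56.8 and 21.2 CPM in WT Th17 cells, and 155 and 62.9 CPM in NFATc1/ΔS Th2 cells against 176 and 69.9 CPM in WT Th2 cells. Its pairs pointed up in Th17 and down in Th2. Dntt, Ms4a4b, Pglyrp1 and Ldhd did not pass with DESeq2, and Ms4a4b and Ldhd did not pass with limma-voom. Each of them also failed to pass in at least 1 of the fits with a pair left out. Eps8l1 and the antisense transcript Gm15494, which overlap on opposite strands, rose together in Th2, from few reads. Eps8l1 had 14 and 19 reads in NFATc1/ΔS Th2 cells against 0 and 0 in WT Th2 cells. Gm15494 had 49 and 24 reads in NFATc1/ΔS Th2 cells against 8 and 4 in WT Th2 cells. With a kit not labelled as stranded, reads of Eps8l1 and Gm15494 cannot be told apart. Ldhd likewise overlaps Znrf1 on the opposite strand, so some of its reads may belong to Znrf1.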
